A study of Mus musculus with 18 samples.

Results

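Quadriceps of 17-month-old mice labelled Pofut1 knockout was compared with quadriceps of 17-month-old Cre controls by RNA sequencing. The comparison holds 6 of the 18 libraries of the study, 3 labelled old knockout (numbered 17, 45 and 40) and 3 labelled old Cre (99, 35 and 34). Knockout mice carried Cre recombinase under the skeletal alpha actin promoter together with Pofut1flox/flox alleles. Cre mice carried the same Cre transgene with wild-type Pofut1, so both groups express Cre and differ in the floxed alleles and their deletion. All mice are labelled C57/Bl6. The other 12 libraries are knockout and Cre muscle at 2 months and floxed muscle without Cre at both ages, 3 each, and they enter here to estimate the spread between libraries and to place single values. The skeletal alpha actin promoter is active in muscle fibres, so satellite cells, fibroblasts, vessels, nerve and blood cells of the same muscle are not its known targets. Whole muscle was sequenced, and in such bulk RNA fewer cells of a type and less RNA per cell cannot be told apart. The labels do not state that each library came from a separate animal, so p-values measure the spread between these samples, part of which may be technical.

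Pofut1 encodes the enzyme that attaches O-fucose to EGF-like repeats of Notch receptors and some other secreted and membrane proteins. Fringe enzymes can extend this fucose, and the sugar shapes how Notch receptors bind Delta and Jagged ligands on neighbouring cells. After binding, the receptor is cleaved and its intracellular part joins RBPJ and Mastermind proteins on target genes such as those of the Hes and Hey families. In muscle the pathway is best known for keeping satellite cells, the stem cells of the fibre, quiescent. Adult fibres that lose their nerve or regenerate are known to take up again embryonic and perinatal myosins and the fetal acetylcholine receptor subunit.

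The 6 libraries held 26320609 to 31440196 counts over 15224 genes. Values are given per library as CPM, read counts scaled to a common library size, in the order 17, 45, 40 for knockout and 99, 35, 34 for Cre. The fibre gene Acta1, whose promoter drives Cre, had 14113 to 15610.0 CPM in knockout libraries and 14534 to 17000.0 CPM in Cre libraries. Xist, the noncoding RNA that silences an X chromosome in female cells, was high (at least 260.2 CPM) in knockout 17 and 40 and in Cre 99 and 35, and low (at most 1.52 CPM) in knockout 45 and Cre 34. Spearman correlations across genes among the 6 libraries ran from 0.961 to 0.985, and the lowest was between knockout 45 and the library labelled old knockout 40. On the first principal component of the 6 libraries, which held 37.1% of the variance, knockout 17 and 45 lay at -14.9 and -40.0, the library labelled old knockout 40 at 31.5 and the Cre libraries at 14.4, 9.5 and -0.5.

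Pofut1 itself (Entrez 140484; GRCm38 chromosome 2, 153241533 to 153270247, plus strand) was measured over the whole gene. It had 10.6, 10.5 and 16.3 CPM in the knockout libraries, against 18.3, 15.8 and 16.3 CPM in the Cre libraries. Knockout 17 and 45 lay below every Cre library, while the library labelled old knockout 40 lay inside the Cre range. Young knockout libraries had 9.30 to 9.61 CPM, against 13.8 to 19.04 CPM in young Cre libraries. With all 3 knockout libraries the log2 fold change was -0.43 (SE 0.153, adjusted p = 0.282). Without the library labelled old knockout 40 it was -0.67 (SE 0.129), which is given as a description, because Pofut1 was itself the reason to set that library apart. Which exons the floxed alleles remove is not given in the sources used here, and reads from undeleted exons and from cells without Cre would both count towards these levels. For this reason the results below come from fits with all 3 knockout libraries and from fits that leave knockout 40 out. In brackets these are given as "with all 3" and "without 40".

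**Figure D1:**
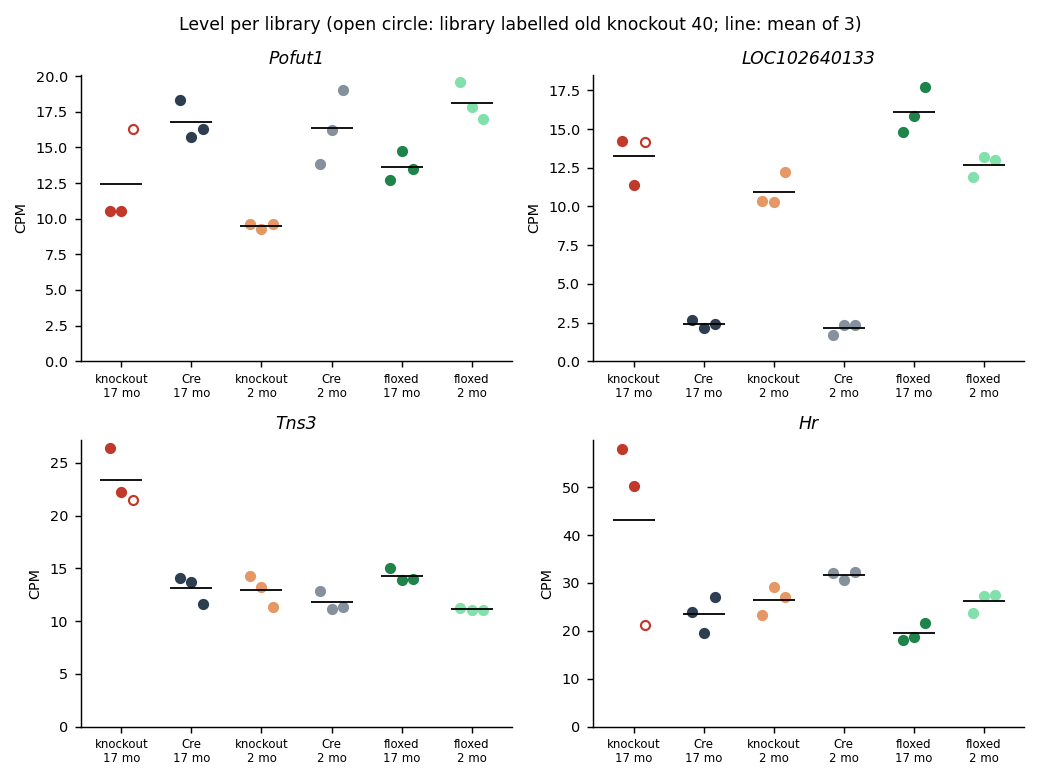
Level of Pofut1, LOC102640133, Tns3 and Hr in each of the 18 libraries, in CPM on a linear axis, by genotype and age. Points are libraries, lines are means of 3, and the open circle is the library labelled old knockout 40, which sits with the knockout libraries for Tns3 and LOC102640133 and among the Cre libraries for Pofut1 and Hr.

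With all 3 knockout libraries, 2 of 15224 genes (0.0131%) passed edgeR's quasi-likelihood test with Benjamini-Hochberg adjustment at 0.05, and both were higher (1950 genes had an unadjusted p under 0.05, and DESeq2 called 120). Tns3, which encodes tensin 3, a protein that links integrins to actin at focal adhesions (GRCm38 chromosome 11, 8431652 to 8664535, minus strand), had 26.4, 22.3 and 21.4 CPM in knockout libraries, against 14.1, 13.7 and 11.6 CPM in Cre libraries. The groups did not overlap, and the library labelled old knockout 40 lay with the other knockout libraries. The fold was 1.78 (log2 0.83 with all 3, SE 0.111, adjusted p = 0.0099), and 1.85 without the library labelled old knockout 40 (log2 0.89 without 40, adjusted p = 0.0057). Tns3 passed in 9 of 12 alternative fits and was lost without knockout 17, without Cre 35 and in the fit of the 2 groups alone (adjusted p up to 0.328). LOC102640133, a long noncoding RNA listed by RefSeq as Gm19378 on chromosome 15, had 14.3, 11.4 and 14.2 CPM in knockout libraries, against 2.69, 2.12 and 2.40 CPM in Cre libraries. The log2 fold change was 2.47 (SE 0.146, adjusted p = 2.06e-07), and it passed in 12 of 12 alternative fits. Floxed libraries of the same age, which carry no Cre and are not deleted, had 14.8 to 17.7 CPM, so its level in knockout muscle was near that of the floxed controls and apart from that of the Cre controls.

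All 3 knockout libraries lay above all 3 Cre libraries for 1152 genes (7.57%) and below them for 1253 genes (8.23%). The median log2 fold change over all genes was 0.02. Among genes close to the threshold, Cdk6, a cyclin-dependent kinase of the G1 phase, had 5.94, 6.33 and 3.96 CPM in knockout libraries, against 2.46, 2.59 and 2.87 CPM in Cre libraries (log2 1.04 with all 3, adjusted p = 0.0756). Smad3, a transducer of TGF-beta and myostatin signals, had 53.9, 47.3 and 59.5 CPM in knockout libraries, against 103, 85.3 and 83.5 CPM in Cre libraries (log2 -0.76 with all 3, adjusted p = 0.0756). Neither gene's groups overlapped.

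Without the library labelled old knockout 40, 128 genes (0.841%) passed, 85 higher (0.558%) and 43 lower (0.282%). The lower genes include Pofut1 itself, by which that library was set apart. These counts rest on few libraries. With knockout 17 as the only knockout library 3 genes passed (LOC102640133, Tns3 and Hr), with knockout 45 alone 156, without Cre 35 24 and without Cre 99 22. Fitted to the compared groups alone, without sharing the spread of the other libraries, 4 genes passed. The library labelled old knockout 40 did not move one way at the higher genes, and at the lower genes it lay mostly below the Cre range. It lay above the Cre range for 30 of the 85 higher genes, inside it for 22 and below it for 33, and for the 43 lower genes it lay above for 4, inside for 14 and below for 25. Over all genes it lay above the Cre range for 29.8% and below it for 27.7%.

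Genes of developing and regenerating fibres were high in knockout 17 and 45. Of 22 measured genes on this list, 7 rose without that library (against 0.558% of all genes) and none fell, and 22 had a positive log2 fold change with a median of 1.40, against a median of -0.000864 over all genes. The library labelled old knockout 40 lay above the Cre range for 1 of the 22, inside it for 11 and below it for 10. Over all genes these shares were 29.8%, 42.6% and 27.7%. With all 3 knockout libraries none passed, 21 were positive and the median was 1.02. The gene lists here and below were chosen with earlier results of these data known, so their counts are descriptions only. Myh8, the perinatal myosin heavy chain, had 131, 374 and 38.1 CPM in knockout libraries, against 32.7, 39.0 and 55.3 CPM in Cre libraries. Its log2 fold change was 2.58 without the library labelled old knockout 40 (SE 0.351, adjusted p = 0.0057) and 2.10 with it (adjusted p = 0.173). Myh3, the embryonic myosin heavy chain, had 69.8, 232 and 13.8 CPM in knockout libraries, against 16.5, 19.3 and 25.7 CPM in Cre libraries (log2 2.88 without 40, SE 0.594, adjusted p = 0.0405). For both myosins knockout 45 was highest by a wide margin, knockout 17 also lay above every Cre library, and the library labelled old knockout 40 lay inside or below the Cre range.

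The other risers on this list belong to fusion, growth and the immature sarcomere. Myl4, a myosin light chain of embryonic muscle and the atria, had 46.7, 167 and 7.76 CPM in knockout libraries, against 11.4, 13.9 and 16.5 CPM in Cre libraries (log2 2.94 without 40, adjusted p = 0.0134). Tmem8c, the fusion protein myomaker, had 2.02, 7.96 and 0.0392 CPM in knockout libraries, against 0.499, 0.562 and 0.275 CPM in Cre libraries (log2 3.46 without 40, adjusted p = 0.0293), and the lowest of these values stands for 1 count. Igf2, a growth factor of fetal and regenerating muscle, had 24.0, 61.6 and 4.90 CPM in knockout libraries, against 4.57, 7.46 and 7.94 CPM in Cre libraries (log2 2.68 without 40, adjusted p = 0.0164). All 3 genes repeat the order of the myosins, with knockout 45 above knockout 17 and both above Cre. Ncam1, an adhesion molecule that spreads over denervated and regenerating fibres, had 16.4, 32.7 and 7.17 CPM in knockout libraries, against 6.29, 6.52 and 7.62 CPM in Cre libraries (log2 1.85 without 40, adjusted p = 0.0175). Tnnt2, the cardiac and embryonic troponin T, was named after its values were seen and had 14.8, 46.5 and 3.57 CPM in knockout libraries, against 6.79, 8.77 and 8.45 CPM in Cre libraries (log2 1.94 without 40, adjusted p = 0.0396). Myog, the transcription factor myogenin, did not pass at 6.72, 9.92 and 1.92 CPM in knockout libraries, against 4.8, 2.22 and 2.20 CPM in Cre libraries (log2 1.44 without 40, adjusted p = 0.0654). At 2 months 6 of the 22 list members were positive, with a median of -0.21.

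**Figure D2:**
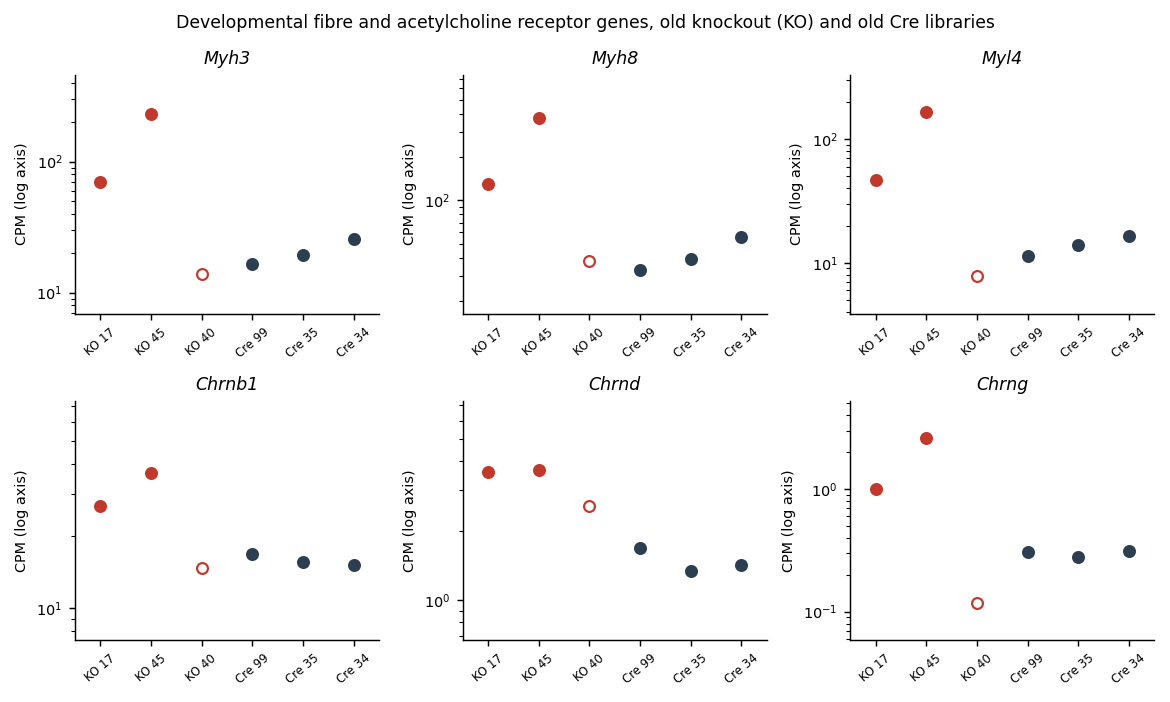
Level of 6 genes in the 3 old knockout (KO) and 3 old Cre libraries, in CPM on log axes. Each point is a library and the open circle is the library labelled old knockout 40, which lies below knockout 17 and 45 for all 6 genes, while knockout 17 and 45 lie above every Cre library.

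Acetylcholine receptor subunits, which form the receptor at the nerve contact, had positive log2 fold changes for 4 of 4 measured genes (49.9% of all genes were positive without 40), and 2 rose without the library labelled old knockout 40 (0.558% of all genes). Chrnb1, the beta subunit of fetal and adult receptors, had 26.7, 36.8 and 14.7 CPM in knockout libraries, against 16.7, 15.5 and 15.1 CPM in Cre libraries (log2 1.01 without 40, SE 0.173, adjusted p = 0.0167; 0.73 with all 3 knockout libraries, adjusted p = 0.254). Chrnd, the delta subunit, had 3.61, 3.67 and 2.55 CPM in knockout libraries, against 1.69, 1.34 and 1.41 CPM in Cre libraries, with no overlap (log2 1.30 without 40, SE 0.254, adjusted p = 0.031; 1.15 with all 3, adjusted p = 0.125). Chrnd is the member for which the library labelled old knockout 40 also lay above the Cre range. Chrng, the fetal gamma subunit, had 1.01, 2.63 and 0.118 CPM in knockout libraries, against 0.307, 0.281 and 0.314 CPM in Cre libraries, and did not pass (log2 2.59 without 40, adjusted p = 0.0765). Chrna1, the alpha subunit, had 22.5, 46.4 and 18.9 CPM in knockout libraries, against 20.5, 15.5 and 15.99 CPM in Cre libraries (log2 0.99 without 40, adjusted p = 0.0942). The adult epsilon subunit is not analysed here. None of the 4 was positive at 2 months.

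Because these genes moved together, the 250 bases before the start of 4 of them that rose are shown, read 5′ to 3′ along the gene from RefSeq (GRCm38.p6). Capitals mark E-boxes, the letters CANNTG that myogenic factors of the MyoD family are known to bind, which read the same on both strands apart from the NN letters. The stretches are chr11:69795938-69796187 (minus strand) for Chrnb1, chr11:67078050-67078299 (plus strand) for Myh3, chr11:67276874-67277123 (plus strand) for Myh8 and chr11:104550413-104550662 (plus strand) for Myl4.
Chrnb1: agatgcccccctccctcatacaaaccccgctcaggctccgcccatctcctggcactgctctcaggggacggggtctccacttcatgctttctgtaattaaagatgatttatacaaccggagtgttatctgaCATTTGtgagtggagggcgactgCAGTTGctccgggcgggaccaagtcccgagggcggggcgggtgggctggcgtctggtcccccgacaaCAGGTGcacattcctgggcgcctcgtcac
Myh3: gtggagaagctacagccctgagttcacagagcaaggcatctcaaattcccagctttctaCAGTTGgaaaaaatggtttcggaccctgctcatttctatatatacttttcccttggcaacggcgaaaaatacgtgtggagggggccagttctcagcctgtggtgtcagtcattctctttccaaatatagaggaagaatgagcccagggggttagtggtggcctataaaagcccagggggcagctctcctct
Myh8: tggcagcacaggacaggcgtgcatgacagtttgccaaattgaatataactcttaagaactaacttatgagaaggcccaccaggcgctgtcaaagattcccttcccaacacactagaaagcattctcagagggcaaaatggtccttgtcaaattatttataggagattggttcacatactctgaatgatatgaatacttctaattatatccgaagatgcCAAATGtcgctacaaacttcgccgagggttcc
Myl4: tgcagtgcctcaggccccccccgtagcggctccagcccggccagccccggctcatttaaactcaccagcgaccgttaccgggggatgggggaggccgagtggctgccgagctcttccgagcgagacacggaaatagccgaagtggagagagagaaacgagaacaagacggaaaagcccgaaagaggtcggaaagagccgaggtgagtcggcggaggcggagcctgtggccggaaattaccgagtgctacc
A search of the printed strand, whose matches are also those of the other strand, gave 3 matches before Chrnb1. It gave 1 each before Myh3 and Myh8 and 0 before Myl4. The same letters occur in 59.2% of the 14421 promoter windows available for 11216 of the 15224 genes measured. They occur in 76.8% of the 95 windows for 65 of the 85 genes called higher without the library labelled old knockout 40. For 35 of the 43 genes called lower they occur in 72.9% of the 48 windows. Some genes have more than 1 window. A match describes these letters only.

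Other genes of the nerve contact gave no call. Of 22 neuromuscular junction genes 21 were positive with all 3 knockout libraries (median 0.28) and 18 without the library labelled old knockout 40 (median 0.22), and none passed either way. All 3 knockout libraries lay above all Cre libraries for 6 of the 22, against 7.57% of all genes. Ank3, an ankyrin that anchors sodium channels, had 181, 174 and 174 CPM in knockout libraries, against 134, 93.6 and 139 CPM in Cre libraries (log2 0.53 with all 3, adjusted p = 0.188). Dok7, the activator of the kinase MuSK, had 7.07, 7.03 and 3.998 CPM in knockout libraries, against 4.34, 4.09 and 4.83 CPM in Cre libraries (log2 0.68 without 40, adjusted p = 0.0773). Rapsn, which clusters the receptors, pointed the other way, at 14.8, 14.5 and 17.9 CPM in knockout libraries, against 20.7, 18.8 and 19.2 CPM in Cre libraries (log2 -0.31 with all 3, adjusted p = 0.324). Of 20 denervation response genes 1 rose without the library labelled old knockout 40 (0.558% of all genes), and 15 were positive (median 0.56). The 1 that rose was Ncam1, which stands on the fibre list too. Runx1, a transcription factor known to rise in denervated fibres, had 8.24, 8.07 and 3.14 CPM in knockout libraries, against 4.45, 4.12 and 3.89 CPM in Cre libraries (log2 0.97 without 40, adjusted p = 0.086). Kcnn3, the apamin-sensitive potassium channel of denervated fibres, had 6.80, 5.92 and 4.04 CPM in knockout libraries, against 2.99, 2.34 and 1.93 CPM in Cre libraries, with no overlap (log2 1.39 without 40, adjusted p = 0.0547). Fibre excitation genes gave 6 positive of 15 (median -0.11 without the library) with none passing.

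Notch receptors are a known substrate of the deleted enzyme, and apart from Pofut1 no listed gene of the pathway was called in either fit. Of 10 enzymes that attach or extend O-fucose and O-glucose, the 9 beside Pofut1 gave no call, and the value of Pofut1 is a description, as given above. Pofut2, which fucosylates thrombospondin repeats in place of EGF repeats, had 12.6, 10.3 and 11.4 CPM in knockout libraries, against 13.8, 13.3 and 13.0 CPM in Cre libraries (log2 -0.22 with all 3, adjusted p = 0.353). Lfng, a Fringe enzyme, had 3.07, 3.74 and 2.43 CPM in knockout libraries, against 2.30, 2.28 and 2.71 CPM in Cre libraries (log2 0.49 without 40, adjusted p = 0.312). Neither of them passed in either fit. The 6 genes of GDP-fucose supply had a median of 0.10 with all 3 knockout libraries and none passed.

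Receptors and ligands were measured at low levels for whole muscle. Notch2, at 34.3, 41.0 and 28.7 CPM in knockout libraries, against 24.8, 20.97 and 30.8 CPM in Cre libraries, was the most abundant receptor in reads (log2 0.56 without 40, adjusted p = 0.175). Notch1 had 10.7, 9.26 and 13.6 CPM in knockout libraries, against 7.75, 8.14 and 10.7 CPM in Cre libraries (log2 0.34 with all 3, adjusted p = 0.492). Notch3, a receptor of vessel walls and satellite cells, had 7.62, 6.22 and 2.74 CPM in knockout libraries, against 4.796, 5.55 and 7.74 CPM in Cre libraries (log2 -0.12 with all 3, adjusted p = 0.901). The receptors' groups overlapped. Of the 4 ligands 3 were positive with all 3 knockout libraries and 2 with knockout 40 left out. Dll4, an endothelial ligand, had 2.29, 1.89 and 7.997 CPM in knockout libraries, against 3.22, 3.84 and 3.89 CPM in Cre libraries, so that the library labelled old knockout 40 lay above and the other 2 below the Cre range.

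Downstream of the receptors, 11 Notch targets had a median of 0.15 with all 3 knockout libraries and 0.12 without the library labelled old knockout 40, and none passed. Hes1 had 6.18, 11.6 and 8.78 CPM in knockout libraries, against 11.4, 15.2 and 12.6 CPM in Cre libraries (log2 -0.56 with all 3, SE 0.257, adjusted p = 0.376). Hey1 had 3.92, 2.59 and 4.27 CPM in knockout libraries, against 4.26, 2.46 and 2.99 CPM in Cre libraries, and Heyl 1.83, 2.18 and 1.02 CPM against 1.07, 1.93 and 2.40 CPM. For all 3 targets the groups overlapped. Of 15 genes of receptor cleavage and the nuclear complex 11 were positive (median 0.17), and of 10 regulators 3 were positive (median -0.11), again with none passing. Numb, an adaptor that restrains Notch, had 20.2, 17.4 and 19.8 CPM in knockout libraries, against 26.0, 24.3 and 23.5 CPM in Cre libraries, with no overlap (log2 -0.37 with all 3, adjusted p = 0.239).

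Satellite cell genes, 16 of which were measured, had 12 positive members and no called gene. Pax7, the defining factor of these cells, had 0.661, 1.33 and 0.470 CPM in knockout libraries, against 0.460, 0.780 and 0.825 CPM in Cre libraries (log2 0.53 without 40, adjusted p = 0.529). Myf5 had 0.971, 1.70 and 0.784 CPM in knockout libraries, against 0.537, 0.811 and 0.747 CPM in Cre libraries. The summed level of the list was 283, 314 and 255 CPM in knockout libraries, against 251, 221 and 262 CPM in Cre libraries.

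Extracellular matrix genes form the scaffold around fibres. Of 43 measured genes 8 rose without the library labelled old knockout 40 (against 0.558% of all genes) and 40 were positive (median 0.80). With all 3 knockout libraries none passed, 41 were positive and the median was 0.55. As said above, the list was chosen with earlier results known, so these counts are descriptions. Postn, the matricellular protein periostin of repair tissue, had 51.6, 116 and 9.88 CPM in knockout libraries, against 11.9, 16.7 and 7.90 CPM in Cre libraries (log2 2.79 without 40, SE 0.404, adjusted p = 0.0071). Bgn, the small proteoglycan biglycan, had 24.8, 43.2 and 23.0 CPM in knockout libraries, against 13.8, 14.5 and 14.0 CPM in Cre libraries, with no overlap (log2 1.27 without 40, SE 0.226, adjusted p = 0.0193; 1.11 with all 3, adjusted p = 0.103). The matrix risers thus differed in where the library labelled old knockout 40 lay. Of the 43 matrix genes it lay above the Cre range for 12, inside it for 13 and below it for 18. Over all genes the shares were 29.8%, 42.6% and 27.7%. Col5a2, a fibril collagen, had 64.3, 99.99 and 20.3 CPM in knockout libraries, against 29.2, 32.8 and 28.8 CPM in Cre libraries (log2 1.44 without 40, adjusted p = 0.0244). Mmp2, a gelatinase, had 60.4, 76.7 and 30.2 CPM in knockout libraries, against 26.1, 33.6 and 38.6 CPM in Cre libraries (log2 1.07 without 40, adjusted p = 0.036). The other 4 risers, named for being called, were Col3a1, Col6a1, the basement membrane linker Nid1 and the collagen cross-linker Lox. Col3a1 had 285, 556 and 42.0 CPM in knockout libraries, against 89.1, 134 and 114 CPM in Cre libraries (log2 1.90 without 40, adjusted p = 0.0481). Lox had 19.1, 20.8 and 12.1 CPM in knockout libraries, against 8.75, 8.05 and 11.5 CPM in Cre libraries, without overlap (log2 1.09 without 40, adjusted p = 0.0439).

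Genes of cells that make matrix and of the link between fibre and matrix accompanied them in part. Of 18 genes of fibro-adipogenic cells, the mesenchymal cells between fibres, 2 rose without the library labelled old knockout 40 (0.558% of all genes), and the list's median was 0.18. Pdgfra, their defining receptor, had 98.0, 109 and 71.1 CPM in knockout libraries, against 64.7, 62.3 and 68.2 CPM in Cre libraries, with no overlap (log2 0.67 without 40, SE 0.141, adjusted p = 0.0435; 0.51 with all 3, adjusted p = 0.226). Mfap5, a microfibril protein, had 16.9, 17.4 and 6.66 CPM in knockout libraries, against 7.98, 8.67 and 8.80 CPM in Cre libraries (log2 1.01 without 40, adjusted p = 0.0164). The summed level of the fibro-adipogenic list, 1539, 1451 and 1378 CPM in knockout libraries against 1251, 1341 and 1407 CPM in Cre libraries, overlapped between the groups, and whether more of these cells bears on the matrix genes was not tested. Of 20 genes of the dystrophin complex, laminins and integrins 1 rose without the library labelled old knockout 40 (0.558% of all genes). This was Lama2, the laminin chain missing in merosin-deficient dystrophy. It had 149, 171 and 106 CPM in knockout libraries, against 85.1, 79.4 and 108 CPM in Cre libraries (log2 0.81 without 40, SE 0.148, adjusted p = 0.0218). Sntb1, a syntrophin, had 6.64, 8.07 and 10.7 CPM in knockout libraries, against 4.18, 3.46 and 2.40 CPM in Cre libraries, and did not pass (log2 1.34 with all 3, adjusted p = 0.173). Of 10 tendon genes 7 were positive and none passed. Of 28 genes of TGF-beta, BMP and activin signalling 21 were positive with all 3 knockout libraries and none passed. Smad3, which is not on that list, fell without the library labelled old knockout 40 (log2 -0.84 without 40, SE 0.149, adjusted p = 0.0193).

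**Figure D3:**
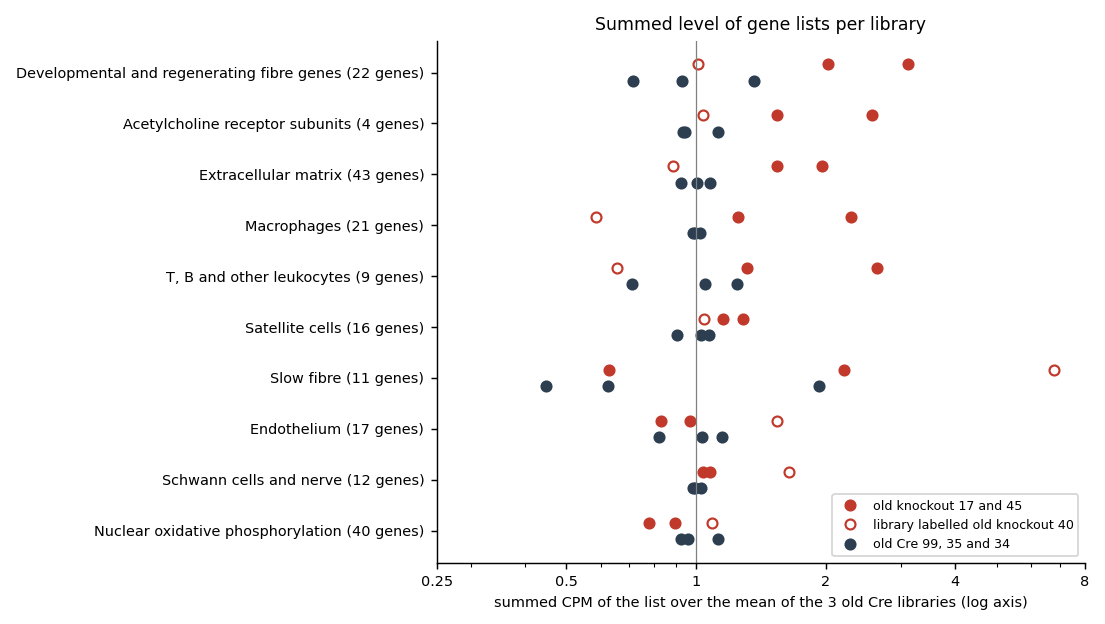
Summed CPM of 10 gene lists in each old knockout and old Cre library, divided by the mean of the 3 old Cre libraries, on a log axis. The open circle, the library labelled old knockout 40, lies at 6.77 for slow fibre genes, above the other 5 libraries, and at 0.586 for macrophage genes, below the other 5 libraries.

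Immune cell genes split the knockout libraries. Of 21 macrophage genes 21 had a positive log2 fold change, with a median of 0.52 over all 3 knockout libraries and of 0.88 once knockout 40 was left out, and none passed. Their summed level was 482, 878 and 225 CPM in knockout libraries, against 382, 391.9 and 377 CPM in Cre libraries. Knockout 45 was highest and the library labelled old knockout 40 lowest of the 6. That library lay below the Cre range for 18 of the 21 genes, against 27.7% of all genes. The complement subunit C1qb had 15.1, 27.1 and 6.31 CPM in knockout libraries, against 8.44, 11.6 and 9.59 CPM in Cre libraries (log2 1.09 without 40, adjusted p = 0.131). Csf1r, the growth factor receptor of macrophages, had 33.5, 50.7 and 18.1 CPM in knockout libraries, against 24.4, 22.3 and 27.7 CPM in Cre libraries (log2 0.76 without 40, adjusted p = 0.168). The defining macrophage gene Adgre1 and the lymphocyte genes Cd3e and Cd79a are not analysed here. The 9 measured genes of T, B and other leukocytes had a median of 1.79 without the library labelled old knockout 40, with 0 called. Summed, these genes had 35.6, 71.5 and 17.8 CPM in knockout libraries, against 28.4, 33.7 and 19.2 CPM in Cre libraries. Knockout 17 thus lay close to Cre 35. Ciita, the master regulator of class II antigen presentation genes, rose at 4.62, 7.59 and 0.902 CPM in knockout libraries, against 1.23, 3.03 and 2.20 CPM in Cre libraries (log2 1.49 without 40, adjusted p = 0.0482). Of 3 measured antigen presentation genes it was the 1 called without 40 (0.841% of all genes). Of 25 interferon response genes 12 were positive without that library, with none called. Ikzf3, a transcription factor of lymphocytes, had 1.59, 3.22 and 0.745 CPM in knockout libraries, against 0.153, 0.468 and 0.118 CPM in Cre libraries, without overlap (log2 3.21 without 40, adjusted p = 0.0357). The summed levels of the developmental fibre list (2877, 4409 and 1440.0 CPM in knockout libraries, against 1317, 1937 and 1014 CPM in Cre libraries) and of the matrix list (2579, 3292 and 1485 CPM in knockout libraries, against 1543, 1682 and 1805 CPM in Cre libraries) had the same order among the knockout libraries as the macrophage list. The part of the immune cells in those results was not tested.

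Fibre type genes varied within both groups. The summed level of 11 slow fibre genes was 261, 921 and 2819 CPM in knockout libraries, against 187, 803 and 259 CPM in Cre libraries. The library labelled old knockout 40 lay above the Cre range for 11 of 11, against 29.8% of all genes. In the summed level Cre 35 and knockout 45 were also high, so the groups overlapped. With all 3 knockout libraries the median was 1.32, without that library 0.50, and none passed. Tnni1, the slow troponin I, had 11.5, 41.5 and 52.4 CPM in knockout libraries, against 1.96, 16.2 and 4.72 CPM in Cre libraries (log2 2.19 with all 3, SE 1.03, adjusted p = 0.386). Of 13 fast fibre genes 2 were positive with all 3 knockout libraries (median -0.16). The 3 knockout libraries lay below all Cre libraries for 4 of the 13, against 8.23% of all genes. The fast troponin C gene Tnnc2 had 7437, 7173 and 7619 CPM in knockout libraries, against 9293, 10060.0 and 9789.9 CPM in Cre libraries, with no overlap (log2 -0.39 with all 3, adjusted p = 0.254). Myh1, the fast myosin IIx, lay on the other side at 12409, 18051 and 20702 CPM in knockout libraries, against 8761, 10831 and 8817.5 CPM in Cre libraries (log2 0.85 with all 3, adjusted p = 0.265).

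Endothelial and nerve genes were highest in the library labelled old knockout 40 as well. That library lay above the Cre range for 14 of 17 endothelial genes and 8 of 12 Schwann cell and nerve genes, against 29.8% of all genes. None of either list passed. The summed endothelial level was 267, 229 and 427 CPM in knockout libraries, against 226, 285 and 318 CPM in Cre libraries. The summed nerve level was 42.5, 44.0 and 67.2 CPM in knockout libraries, against 40.5, 40.1 and 41.9 CPM in Cre libraries. In the library labelled old knockout 40, then, slow fibre, endothelial and nerve genes were high and macrophage genes low together, and their part in the other differences was not tested.

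Energy metabolism genes encoded in the nucleus leaned lower in small steps. Of 26 listed mitochondrially encoded genes 0 were measured. Of 40 nuclear genes of oxidative phosphorylation 4 were positive with all 3 knockout libraries (median -0.12) and 2 without the library labelled old knockout 40 (median -0.25). None passed, and at 2 months 3 of the 40 were positive (median -0.23). Ndufb8, a complex I subunit, had 158, 182 and 214 CPM in knockout libraries, against 190, 247 and 218 CPM in Cre libraries (log2 -0.36 without 40, adjusted p = 0.208). Of 16 fatty acid oxidation genes 7 were positive with all 3 and 2 without that library (median -0.27). Hadhb, a subunit of the trifunctional protein, had 131, 157 and 216 CPM in knockout libraries, against 197, 220 and 219 CPM in Cre libraries (log2 -0.56 without 40, adjusted p = 0.121). In both genes the library labelled old knockout 40 was the highest of the knockout libraries. Of 20 glycolysis and glycogen genes 8 were positive, and all 3 knockout libraries lay below the Cre libraries for 7, against 8.23% of all genes. Phkg1, the catalytic subunit of muscle phosphorylase kinase, had 369, 284 and 318 CPM in knockout libraries, against 411, 416 and 440 CPM in Cre libraries (log2 -0.38 with all 3, SE 0.0981, adjusted p = 0.173). Pink1, a kinase of damaged mitochondria chosen after its values were seen, fell without the library labelled old knockout 40. It had 371, 309 and 515 CPM in knockout libraries, against 516, 508 and 604 CPM in Cre libraries (log2 -0.67 without 40, adjusted p = 0.0482). Park2, the ubiquitin ligase parkin that Pink1 is known to activate, was chosen the same way and rose. It had 55.6, 37.7 and 19.6 CPM in knockout libraries, against 15.3, 15.3 and 15.9 CPM in Cre libraries, without overlap (log2 1.59 without 40, adjusted p = 0.0435), and its log2 fold change at 2 months was 1.59 as well.

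Proliferation, stress and growth lists held few calls. Of 29 cell cycle genes 22 were positive without the library labelled old knockout 40 (median 0.63). Of the 29, 1 rose (0.558% of all genes), Cdk6 (log2 1.22 without 40, SE 0.165, adjusted p = 0.0057). Aurka, a mitotic kinase, lay lower without overlap, at 4.55, 5.07 and 3.68 CPM in knockout libraries, against 11.2, 8.92 and 10.2 CPM in Cre libraries (log2 -1.19 with all 3, adjusted p = 0.125). Of the insulin-like growth factor pathway, Igf2 was the 1 called gene of 15 without 40 (0.841% of all genes). None of the genes passed among 16 of p53 targets and senescence, 20 of ubiquitin ligases and autophagy, 19 of protein folding and stress, 15 immediate early, 16 circadian, 20 adipocyte, 15 smooth muscle and pericyte and 15 sarcomere genes. Their medians without the library labelled old knockout 40 ran from -0.15 for protein folding and stress to 0.43 for adipocyte genes. The chaperone Hspa5, which is induced when proteins misfold in the endoplasmic reticulum, had 194, 170 and 185 CPM in knockout libraries, against 247, 226 and 235 CPM in Cre libraries, without overlap (log2 -0.37 with all 3, adjusted p = 0.255).

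Several called rises outside these lists were in genes with few reads in Cre muscle. Hal, the enzyme histidase that breaks down histidine, had 19.9, 27.1 and 6.19 CPM in knockout libraries, against 0.115, 0.156 and 0.236 CPM in Cre libraries, the last from 3, 5 and 6 counts (log2 7.09 without 40, SE 1.5, adjusted p = 0.0435). Old floxed libraries had 5.59 to 8.24 CPM, and young Cre libraries 0.105, 11.5 and 6.98 CPM, so its low level in the 3 old Cre libraries was not shared by all controls. Krt8, a keratin of simple epithelia that muscle fibres also express, had 1.55, 4.11 and 0.0392 CPM in knockout libraries, against 0.307, 0.281 and 0.236 CPM in Cre libraries (log2 3.35 without 40, adjusted p = 0.0247). Pkhd1, the cilium protein fibrocystin, had 3.07, 9.40 and 0.196 CPM in knockout libraries, against 0.422, 0.780 and 1.10 CPM in Cre libraries (log2 3.02 without 40, adjusted p = 0.0218). Both follow the order of Myh3, with the library labelled old knockout 40 below the Cre range. Uchl1, a ubiquitin hydrolase of neurons, had 3.34, 13.4 and 1.72 CPM in knockout libraries, against 1.15, 1.15 and 1.26 CPM in Cre libraries, without overlap (log2 2.81 without 40, adjusted p = 0.0105). Csdc2, an RNA-binding protein, had 0.544, 2.15 and 0.118 CPM in knockout libraries, against 0.0767, 0.343 and 0.0786 CPM in Cre libraries (log2 2.92 without 40, adjusted p = 0.0435). The immunoglobulin segment Ighv1-53, which shares reads with near-identical segments and is uncertain for that reason, had 4.51, 8.996 and 0 CPM in knockout libraries, against 0.691, 1.37 and 0.943 CPM in Cre libraries (log2 2.74 without 40, adjusted p = 0.0482).

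Genes that fell without the library labelled old knockout 40 had a median log2 fold change of -0.83, against 1.34 for those that rose, and for 25 of the 43 that library lay below the Cre range too. Nedd1, which recruits the gamma-tubulin ring complex to centrosomes, had 12.7, 14.7 and 18.2 CPM in knockout libraries, against 31.9, 34.5 and 24.4 CPM in Cre libraries (log2 -1.14 without 40, adjusted p = 0.0175). Slc41a3, a magnesium transporter, had 23.9, 24.6 and 32.3 CPM in knockout libraries, against 44.1, 43.4 and 42.7 CPM in Cre libraries (log2 -0.84 without 40, adjusted p = 0.0071). E2f6, a transcriptional repressor of the E2F family, had 88.7, 74.5 and 109 CPM in knockout libraries, against 126, 136 and 143 CPM in Cre libraries (log2 -0.73 without 40, adjusted p = 0.0134). None of the 3 overlapped between groups. Asb14, a substrate receptor of a ubiquitin ligase, had 60.9, 45.9 and 86.5 CPM in knockout libraries, against 95.8, 93.4 and 95.6 CPM in Cre libraries (log2 -0.83 without 40, adjusted p = 0.0163). Usp44, a deubiquitinase of the mitotic checkpoint, had 1.09, 1.26 and 1.88 CPM in knockout libraries, against 3.22, 2.68 and 3.46 CPM in Cre libraries (log2 -1.40 without 40, adjusted p = 0.01). Spryd7 had 20.01, 25.5 and 24.0 CPM in knockout libraries, against 40.1, 37.0 and 37.7 CPM in Cre libraries (log2 -0.75 without 40, adjusted p = 0.0434). These 3 genes did not overlap either. The library labelled old knockout 40 lay below the Cre range for all 6, and for Asb14 and E2f6 it was nearer to the lowest Cre library than to knockout 17. The remaining genes of the naming rule were Prss55 (log2 -2.82 without 40), Fam83d (log2 -1.97 without 40) and Ccrl2 (log2 -0.97 without 40), all under 8 CPM.

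Among the lower genes, Tdg, which encodes a thymine DNA glycosylase of base excision repair (GRCm38 chromosome 10, 82629828 to 82650799, plus strand), had 2.95, 2.48 and 9.68 CPM in knockout libraries, against 7.48, 12.1 and 11.7 CPM in Cre libraries (log2 -1.94 without 40, SE 0.305, adjusted p = 0.0108). Its surroundings were looked at after these values were seen. Among 15 measured genes in RefSeq order, a stretch bounded by 2 of the fallen genes, 4 fell without that library, and since the called genes set its ends this count is a description only. The first of them, Gm32687, had 1, 0 and 36 counts in knockout libraries, against 24, 79 and 28 counts in Cre libraries. In young knockout libraries it had 0, 1 and 1 counts, and the 9 remaining control libraries had 29 to 67 counts. The gene 1190007I07Rik had 3.42, 3.63 and 13.2 CPM in knockout libraries, against 9.94, 14.8 and 14.2 CPM in Cre libraries (log2 -1.88 without 40, SE 0.253, adjusted p = 0.0057). The noncoding LOC102641476 had 6.14, 4.66 and 14.3 CPM in knockout libraries, against 14.7, 16.3 and 14.4 CPM in Cre libraries (log2 -1.48 without 40, adjusted p = 0.0071). At Tdg, Gm32687 and 1190007I07Rik the library labelled old knockout 40 lay inside the old Cre range, apart from knockout 17 and 45. Young knockout libraries had 2.89 to 3.59 CPM of Tdg, against 7.47 to 12.4 CPM in young Cre libraries.

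**Figure D4:**
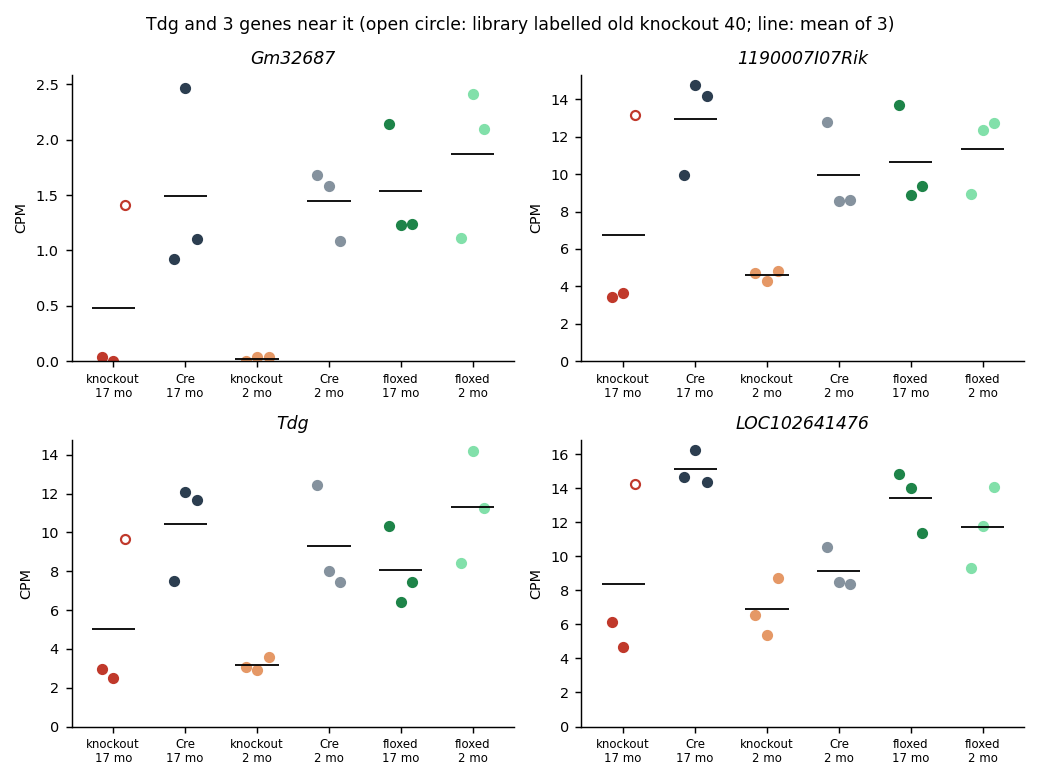
Level of Tdg and 3 genes near it on chromosome 10 in each of the 18 libraries, in CPM on linear axes, by genotype and age. Points are libraries, lines are means of 3, and the open circle is the library labelled old knockout 40, which sits near the old Cre libraries at all 4 genes while the other 5 knockout libraries lie lower or, for LOC102641476 at 2 months, reach the lower end of the controls.

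The neighbourhood of Pofut1 was read in the same libraries. Within 5 Mb of the gene on chromosome 2, 12 of 111 measured genes (10.8%) had an unadjusted p under 0.01 between young knockout and young Cre muscle, against 2.16% of all genes. These 12 were then read in the old libraries. Those libraries entered the choice only through the shared fit, in which all 18 libraries set the spread and scaling, so the reading is not fully independent. Knockout 17 and 45 both lay beyond all Cre libraries on the side seen at 2 months for 8 of the 12. The library labelled old knockout 40 did so for 9, and the 3 floxed libraries, which carry no Cre, together for 6. These counts cannot be ranked, because 1 library lies beyond the Cre range more easily than 2 or 3 together. Over all genes the library labelled old knockout 40 lay above that range for 29.8% and below it for 27.7%. Uqcc1, an assembly factor of respiratory complex III, fell without the library labelled old knockout 40, at 62.1, 66.4 and 84.4 CPM in knockout libraries, against 99.2, 114 and 113 CPM in Cre libraries (log2 -0.76 without 40, adjusted p = 0.0193), and old floxed libraries had 76.0 to 81.9 CPM. Pigu, a subunit of the enzyme that attaches proteins to their lipid anchor, had 13.8, 17.5 and 16.1 CPM in knockout libraries, against 11.4, 10.4 and 10.3 CPM in Cre libraries, and did not pass (adjusted p = 0.0905). Old floxed libraries had 15.1 to 19.1 CPM of Pigu. At 9 of the 12 genes chosen beside Pofut1, and at LOC102640133, the library labelled old knockout 40 thus lay beyond the Cre range on the side of the young knockout libraries. Its Pofut1 level and the genes near Tdg lay with the controls.

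Whether the knockout difference itself changed between 2 and 17 months was tested as the difference of the 2 differences. With all libraries 0 genes (0%) passed edgeR's test, 1095 had an unadjusted p under 0.05 and DESeq2 called 20. Without the library labelled old knockout 40, 1 gene (0.00657%) passed, Hr, the corepressor hairless of nuclear receptors (GRCm38 chromosome 14, 70552212 to 70573548, plus strand). Hr had 57.9, 50.2 and 21.2 CPM in old knockout libraries, against 24.0, 19.5 and 27.2 CPM in old Cre libraries. Young knockout libraries had 23.2 to 29.1 CPM, against 30.6 to 32.3 CPM in young Cre libraries. Knockout 17 and 45 were the highest of all 18 libraries, and the library labelled old knockout 40 lay inside the old Cre range. The log2 fold change at 17 months without that library was 1.2 (SE 0.134, adjusted p = 0.00148), at 2 months -0.26 (adjusted p = 0.81), and the difference of the 2 was 1.46 (SE 0.182, adjusted p = 0.012). With all 3 old knockout libraries the difference was 1.13 (adjusted p = 0.563). At 2 months 2 genes (0.0131%) passed between knockout and Cre muscle, LOC102640133 among them, with a log2 fold change of 2.36. Tns3 had 11.3 to 14.2 CPM in young knockout libraries, against 11.2 to 12.8 CPM in young Cre libraries (log2 0.13), and its difference between ages did not pass (log2 0.70, adjusted p = 0.508). For the developmental fibre genes no test of the age difference passed, so their young and old medians stand side by side only.

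The authors' deposited table for the same comparison lists 130 genes with an adjusted p under 0.05, 69 higher and 61 lower in old knockout muscle, and gives 3855 genes no adjusted p. Of the 130, 2 were called here with all 3 knockout libraries and 45 without the library labelled old knockout 40. For Tns3 the authors' deposited table gives a log2 fold change of 0.83 and an adjusted p of 2.18e-08, and for Pofut1 -0.43 and 0.182.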

How the data were processed

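The deposited gene counts of 18 ScriptSeq v2 libraries of ribosome-depleted quadriceps RNA were analysed, with groups taken from the labels. Per the submitters' processing notes, STAR, HTSeq and DESeq2 were used, and the builds GRCh38.p5 and GRCm38.p4 are named. Not given in the sources used here were versions, counting options and strand, so overlapping and antisense genes cannot be told apart. The deposited log2 values and p-value columns are the authors' own comparison. The deposited counts cover 15224 genes, each with a total of at least 67, and filterByExpr (minimum count 10) removed 0.

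Tests used edgeR 4.0.16 (limma 3.58.1, R 4.3.3): the quasi-likelihood test with 1 mean for each of 6 groups over 18 libraries (12 residual degrees of freedom, 11 without knockout 40), TMM factors of 0.91 to 1.07 and Benjamini-Hochberg adjustment over all genes at 0.05. The biological coefficient of variation was 20.1%. Counts of replicate pairs among the 6 old libraries had a chi-square per degree of freedom of 25.65 to 73.45. No pair was therefore counted as 1 sample. Separate preparations of the same muscle could differ as well, so these values do not show separate animals. The fit was checked on simulated counts. CPM use TMM-scaled sizes. Standard errors are the log2 fold change over the square root of F. A gene is called at an adjusted p under 0.05.

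Named genes were all those called with all libraries, without knockout 40 up to 12 per direction with the largest fold, at least 1 CPM in the higher group and both knockout libraries beyond all Cre libraries, up to 4 list members with the smallest p without knockout 40 and 2 with all libraries, genes called in the age difference, and Pofut1, Acta1, Xist and some Notch, receptor and myosin genes whatever their values. Not every gene so chosen is printed. Members and gene lists were chosen with earlier results of these data known. Coordinates are from GENCODE M21 (GRCm38), with 12997 genes placed, and 14726 genes were matched to RefSeq. Alternatives were DESeq2 1.42.0, RLE factors, the compared groups alone, a mean of at least 1 CPM, no filter, Xist as a covariate and leaving out each library.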

Additional observations from a re-analysis of the deposited data

Results flagged for a closer look

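Hr differed between the ages: without the library labelled old knockout 40, the log2 knockout effect was 1.46 larger at 17 than at 2 months by edgeR's test of the difference itself (adjusted p = 0.012). Higher in both remaining old knockout libraries than in all 3 old Cre libraries, Hr was lower in all 3 young knockout libraries than in all 3 young Cre libraries. With all libraries the difference did not pass (log2 1.13, adjusted p = 0.563).

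Uchl1 moved in opposite directions at the 2 ages, with a log2 fold change of 2.37 in old muscle, where all 3 knockout libraries lay above all 3 Cre libraries, and all 3 young knockout libraries below all 3 young Cre libraries. That pattern set it apart, and it was not called: edgeR's test of the difference gave a log2 difference of 3.24 (adjusted p = 0.508), and 3.68 without the library labelled old knockout 40 (adjusted p = 0.0882).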

How the results depend on the processing

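The fit was repeated with 1 choice changed at a time, as processed above. With all 3 old knockout libraries, the 2 called genes became 120 with DESeq2 (44 of them among the 128), 1 in the fit of the compared groups alone, 4 with Xist as a covariate and 1 to 128 with 1 library left out, the 128 being without knockout 40. Without that library, the 128 became 476 with DESeq2, 4 in the compared groups alone, 196 with Xist as a covariate and 3 to 156 with a further library left out. A lone knockout library was then assumed to vary like the other groups. The 85 higher and 43 lower genes became 91 and 32 with RLE factors and 54 and 71 without Cre 34. Of the 128, 122 were shared with DESeq2, 116 with RLE factors, 63 without Cre 34, 24 without Cre 35, 20 without Cre 99 and 76 with knockout 45 alone. The 0 genes of the age difference became 20 with DESeq2, 1 with Xist as a covariate and 0 to 1 with 1 library left out. Among genes that were never called, log2 fold changes ran with 1 library left out from -0.80 to 0.49 for Dll4, from -0.00619 to 0.40 for Hey1, from -0.36 to 0.15 for Heyl, from -0.42 to 0.20 for Notch3, from -0.29 to 0.53 for Pax7 and from -0.44 to 0.72 for Xist. The cause of these changes was not tested. No paired analysis was possible because the groups compared share no replicate numbers. Genes under about 1 CPM rest on few counts, since 3 counts equal 0.0936 to 0.118 CPM in these libraries.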
